A study of Homo sapiens with 6 samples.

Results

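The surface markers by which NK cells and T cells are told apart were examined in NK-92, an IL-2-dependent line grown from a human NK cell lymphoma, with and without an shRNA against MIR155HG. The 10 genes were taken by name from the 36601 genes of the count table, and all 10 were found. They comprise markers carried by NK cells, some of them shared with T cells (NCAM1, CD2, CD7 and CD38), 3 subunits of the CD3 complex (CD3D, CD3E and CD3G), further T cell antigens (CD5 and CD8A), and B3GAT1, which makes the CD57 epitope. The control cells carried shCtrl and the knockdown cells shmiR155HG, the knockdown being a stable one, and there were 3 libraries per group. Cells of both groups had been given IL-2 at 1000 U/mL together with IL-12 at 10 ng/mL for 12 h, so no unstimulated state was measured. The treatment field of shmiR155HG replicates 2 and 3 carries other numbers in the gene's name, and these libraries were grouped by their titles. Nothing in the labels says that the libraries of a group came from separate transductions or cultures, so p-values measure the spread between these libraries, which may be technical, and the effect of the shRNA cannot be told apart from other differences between the 2 cell populations.

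NK cells are recognised by CD56, the product of NCAM1, in the absence of CD3 at the cell surface. CD3 is the signalling module of the T cell receptor. Its gamma, delta and epsilon chains (CD3G, CD3D and CD3E) pair as heterodimers, and only a full set with the zeta chain CD247 and a rearranged receptor is carried to the surface. NK cells use CD247 without the other chains, as an adaptor of CD16 and of the receptors NKp30 and NKp46. CD2 is an adhesion receptor for CD58, CD38 is an ectoenzyme that consumes NAD and is a marker of activation, and CD57 is a sugar epitope of mature NK cells and T cells.

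CD38 carries the change described here and CD2 is the most abundant of the 10 mRNAs, so the DNA just before both genes is shown, from RefSeq promoters on GRCh38.p14, read 5′ to 3′ on the plus strand. The CD38 stretch is chr4:15778078-15778274 and the CD2 stretch chr1:116754180-116754429, and each ends 1 base before the outermost annotated start of its gene. Capitals mark matches to the motifs that were searched.
CD38: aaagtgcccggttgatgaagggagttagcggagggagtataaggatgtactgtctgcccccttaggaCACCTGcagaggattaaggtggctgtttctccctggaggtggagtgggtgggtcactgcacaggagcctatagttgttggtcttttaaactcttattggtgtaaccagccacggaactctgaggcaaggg
CD2: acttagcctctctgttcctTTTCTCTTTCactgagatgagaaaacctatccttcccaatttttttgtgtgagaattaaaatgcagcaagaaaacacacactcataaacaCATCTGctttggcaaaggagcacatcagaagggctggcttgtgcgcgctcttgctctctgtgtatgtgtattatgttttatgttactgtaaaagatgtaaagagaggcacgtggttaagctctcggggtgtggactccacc

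Motifs were searched on both strands of windows from 250 bases before to 50 bases after each RefSeq start. The STAT element TTCNNNGAA was found in neither the CD38 nor the CD2 window, and 7.66% of all 35116 windows hold it. Both windows hold 1 E-box CAGNTG, as do 49.9% of windows. The core of the interferon-stimulated response element was matched in the CD2 window and not in that of CD38, against 3.57% of windows. Neither holds the GATA motif AGATAA (10.3% of windows) or the ETS motif CCGGAA (17.2% of windows). A match is only a run of letters in these windows. Windows were at hand for 5 of the 10 genes, the others being CD3D, CD8A and B3GAT1.

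The libraries held 33454786 to 39157264 counts, and TMM scaling factors lay between 0.9967 and 1.003. Levels are given as TMM-scaled CPM, counts brought to a common library size. The limit that a count of 0 allows, 3 counts per library, was 0.0769 to 0.0896 CPM, which covers counting error only. MIR155HG, the target of the shRNA, was low, at 1.59 to 1.87 CPM with shCtrl and 0.299 to 0.729 CPM with shmiR155HG. It exceeded 1 CPM in shCtrl libraries only, so it was tested through that group. In shmiR155HG cells it stood at 29.2% of its shCtrl level (95% interval 15.8% to 53.7%), with no overlap between the groups. The direction is that of the labels. Of all 12263 genes tested, edgeR called 15.3% (quasi-likelihood test, Benjamini-Hochberg adjusted p under 0.05), 7.26% as higher and 8.02% as lower, and the median log2 fold change was 0.001.

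In shCtrl cells the 10 markers fell into a group of 4 that was clearly expressed and a group of 6 at or near the detection limit. NCAM1, CD2, CD38 and CD3E exceeded 1 CPM in 2 or more libraries, the limit for testing. CD7, CD3D, CD3G, CD5, CD8A and B3GAT1 did not pass in either group. Of the 3 CD3 subunits examined, CD3E was thus the only 1 that passed, and CD3D was detected at a low level. The plot of the markers by library shows this gap, with no gene between 1 and 35.3 CPM.

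**Figure D1:**
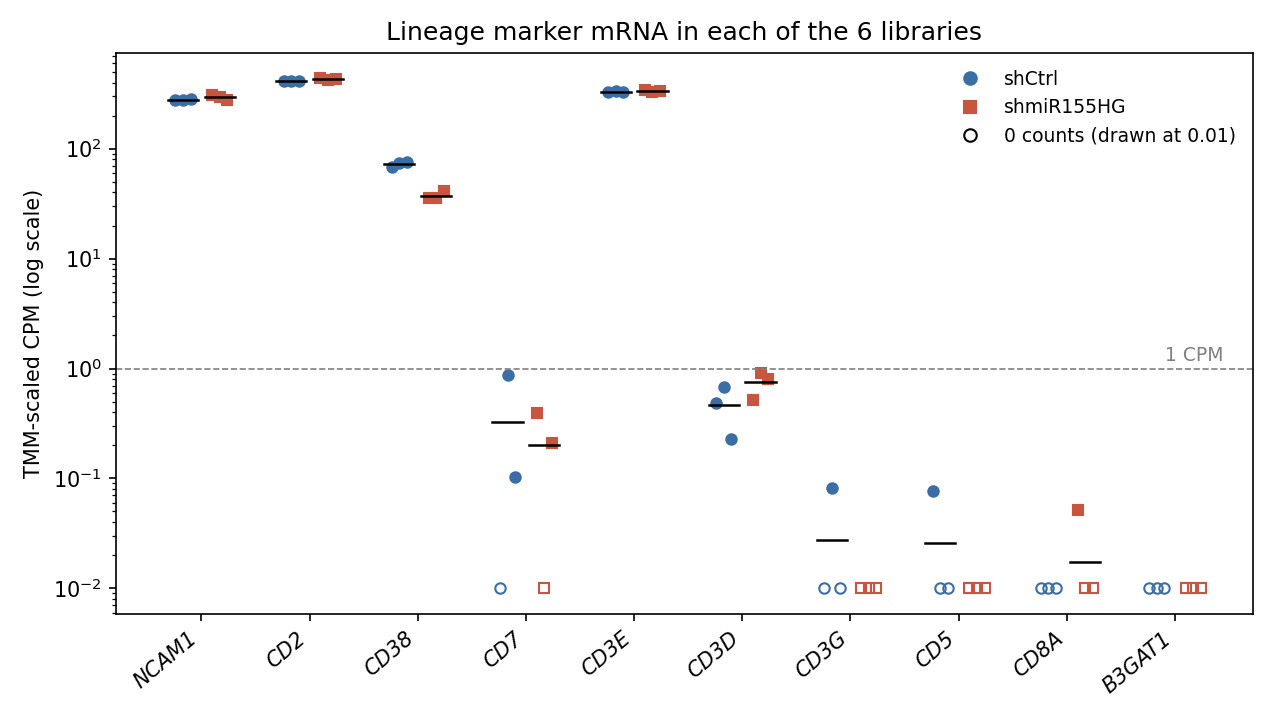
Level of each of the 10 lineage markers in every library, as TMM-scaled CPM on a log axis, with filled circles for shCtrl, filled squares for shmiR155HG, open symbols at the foot for libraries with 0 counts, and bars for the mean of 3 libraries (zeros included). NCAM1, CD2, CD38 and CD3E lie far above the dashed line at 1 CPM, all other markers lie below it in every library, and CD38 is the 1 expressed marker whose groups are widely separated.

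CD2 was the most abundant of them, at 412.0, 412.7 and 416.3 CPM in shCtrl replicates 1, 2 and 3. CD3E stood at 330.5, 333.2 and 326.3 CPM in the same libraries. NCAM1 stood at 275.2, 275.7 and 282.1 CPM. CD38 was the lowest of the 4, at 68.7, 74.8 and 75.4 CPM. The shCtrl libraries lay close together, with a coefficient of variation of 0.556% for CD2, 1.05% for CD3E, 1.38% for NCAM1 and 5.10% for CD38.

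For an order between genes the levels were divided by the length of the canonical transcript. CD2 then stood at 264.3 ± 1.47 CPM per kb (SD, n = 3), with 98.5% of the 12216 genes that passed the filter and have a length below it. CD3E followed at 242.5 ± 2.56 CPM per kb (98.3% of genes below it). The ranges of CD2 (263.3 to 266.0) and CD3E (239.8 to 244.8) did not overlap, although the values are near each other and the gap depends on the length used. NCAM1 stood at 47.7 ± 0.659 CPM per kb (85.6% below) and CD38 at 13.0 ± 0.662 CPM per kb (55% below). CD3D came next at 0.667 ± 0.325 CPM per kb, then CD7 at 0.254 ± 0.373 CPM per kb, and their library ranges overlapped. With the union of all exons as length the first 4 kept their order, at 253.0, 124.1, 21.9 and 10.6 CPM per kb.

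CD38 was the only marker tested that was called, and its mRNA fell to 51.3% of the control level. The level was 68.7, 74.8 and 75.4 CPM in shCtrl replicates 1, 2 and 3, and 35.8, 35.3 and 41.1 CPM in shmiR155HG replicates 1, 2 and 3. The groups did not overlap, all shmiR155HG values being lower, and shmiR155HG replicate 3 was the nearest to the controls. The mean went from 72.9 ± 3.72 CPM with shCtrl to 37.4 ± 3.24 CPM with shmiR155HG (SD, n = 3 each). The log2 fold change was −0.96 (SE 0.0709, 95% interval −1.11 to −0.82, adjusted p = 8.39e-11 by edgeR), a level 1.95-fold lower. In an exact permutation test the p was 0.1, two-sided, which is the smallest that 3 against 3 libraries allow. Of the genes tested, 70 had a larger fall on the log2 scale. In bulk RNA, fewer cells carrying CD38 and less CD38 mRNA per cell cannot be told apart.

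The CD38 gene (ENSG00000004468) spans 15778275 to 15853232 of chromosome 4 (hg38, plus strand), and its canonical transcript has 8 exons and 5620 nt. No other gene of the count table overlaps it. BST1, the neighbouring gene that encodes a related ectoenzyme, stood at 0.405 ± 0.160 CPM with shCtrl and 0.333 ± 0.141 CPM with shmiR155HG (SD, n = 3 each) and was not tested. FBXL5 and FAM200B, the other protein-coding genes that start within 100 kb, had log2 fold changes of −0.20 (adjusted p = 0.0466 by edgeR) and −0.00030 (adjusted p = 0.999 by edgeR). FBXL5 was past the threshold in 7 of 16 alternatives, and its call was lost without shCtrl replicate 1 or 2 or shmiR155HG replicate 1 or 2 (adjusted p = 0.113 to 0.201). These neighbours were looked up after the values of CD38 were seen.

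NCAM1, CD2 and CD3E were not called, and their 95% intervals lay between 96.6% and 112.0% of the control level. NCAM1, whose product CD56 is an adhesion molecule, stood at 310.8, 292.6 and 276.6 CPM in shmiR155HG replicates 1, 2 and 3. The shmiR155HG values were more spread (coefficient of variation 5.83%) than those of shCtrl, and replicate 3 lay within the shCtrl range. The log2 fold change of NCAM1 was 0.080 (SE 0.0395, 95% interval −0.0016 to 0.16, adjusted p = 0.195 by edgeR), which spans 99.9% to 112.0% of the control level. Its gene (ENSG00000149294) spans 112961275 to 113278436 of chromosome 11 (hg38, plus strand), where lncRNAs of the opposite strand overlap it, the most abundant being NCAM1-AS1 at 5.49 ± 0.440 CPM with shCtrl and 5.50 ± 0.454 CPM with shmiR155HG (SD, n = 3 each). CD2 (ENSG00000116824, chromosome 1, 116754430 to 116769229, plus strand) stood at 435.3, 421.0 and 434.1 CPM in shmiR155HG replicates 1, 2 and 3, each above all shCtrl libraries. Its log2 fold change was 0.056 (SE 0.0326, 95% interval −0.011 to 0.12, adjusted p = 0.280 by edgeR), or 99.3% to 109.0% of control. CD3E stood at 339.0, 327.3 and 338.0 CPM, and replicate 2 lay within the shCtrl range. Its log2 fold change was 0.021 (SE 0.0342, 95% interval −0.050 to 0.091, adjusted p = 0.755 by edgeR), or 96.6% to 107.0% of control.

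**Figure D2:**
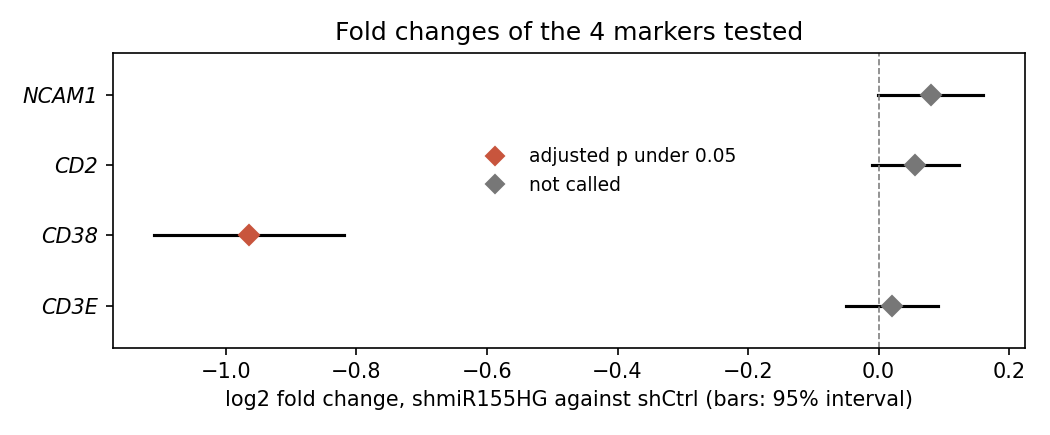
Log2 fold change of the 4 markers tested, shmiR155HG against shCtrl (diamonds), with 95% intervals from the quasi-likelihood fit as bars and a dashed line at no change. CD38 sits at −0.96, far from the other markers, whose intervals all include 0.

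In all, 1 of the 4 markers tested was lower and 0 were higher, against 8.02% and 7.26% of all genes, and with so few genes these shares cannot be set apart from the background. The exact test of edgeR, DESeq2 and limma-voom also called 0 of the 4 higher. Without adjustment, too, edgeR put 0 of the 4 past the threshold as higher. The groups did not overlap for CD38 and CD2, 2 of 4 genes, where 30.8% of all genes tested did not overlap.

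**Figure D3:**
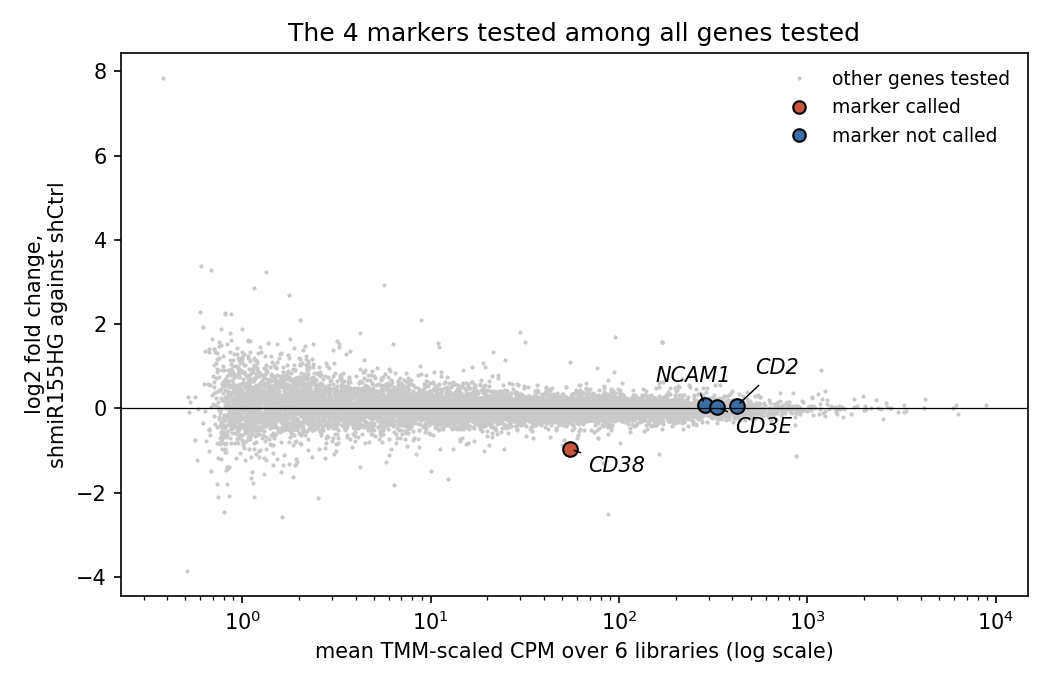
Log2 fold change (vertical axis) against mean TMM-scaled CPM over the 6 libraries (log axis) for every gene tested, with the 4 markers as large circles. CD38 lies near the lower edge of the genes of its level, and NCAM1, CD2 and CD3E lie close to the zero line among the abundant genes.

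The fall of CD38 was also compared with the other markers within each library, which needs no scaling between libraries. The log2 ratio of CD38 to CD3E was −2.27 to −2.11 in shCtrl and −3.24 to −3.04 in shmiR155HG libraries, a difference of −0.99. Against NCAM1 the difference was −1.04, and against CD2 it was −1.02. None of these ranges overlapped between the groups (exact permutation test, two-sided, p = 0.1 each, the smallest possible, and 0.15 after adjustment over 6 ratios). The ratio of NCAM1 to CD2 differed by 0.022 (exact permutation p = 0.7, adjusted 0.70), that of NCAM1 to CD3E by 0.057 (exact permutation p = 0.4, adjusted 0.48), and that of CD3E to CD2 by −0.035 (exact permutation p = 0.1, adjusted 0.15). The CD3E to CD2 ranges did not overlap either (−0.351 to −0.309 in shCtrl, −0.363 to −0.361 in shmiR155HG libraries). Lack of overlap is thus not particular to CD38, and only the size of its differences is.

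Among all genes tested, the profile over the 6 libraries most like that of CD38 was that of DPYSL2, a cytoskeletal regulator, at a Euclidean distance of 0.207 between centred log2 values. DPYSL2 stood at 64.5 ± 2.96 CPM with shCtrl and 35.4 ± 2.13 CPM with shmiR155HG (SD, n = 3 each). The next were AL138694.1, a gene with few counts (distance 0.234), and CDK19, a kinase of the Mediator complex (distance 0.282, 17.4 ± 1.51 CPM against 8.88 ± 0.856 CPM, SD, n = 3 each). Likeness over 6 libraries in 2 groups mostly reflects a fall of like size.

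The CD3 genes differed from each other far more than between the groups. CD3E, CD3D and CD3G lie within 50432 bases of chromosome 11 of hg38 (CD3E from 118304730 to 118316175 on the plus strand, CD3D from 118339075 to 118342705 on the minus strand, CD3G from 118344344 to 118355161 on the plus strand). CD3D and CD3G stand back to back, 1638 bases apart, and CD3E lies 22899 bases from CD3D. The CD3E counts of shCtrl replicates 1 to 3 were 12878, 12172 and 12735, and those of shmiR155HG replicates 1 to 3 were 13029, 12477 and 11321. For CD3D the counts were 19, 25 and 9 with shCtrl and 20, 35 and 27 with shmiR155HG, in the same order. CD3G had 3 counts in shCtrl replicate 2 and 0 in the 5 other libraries. Per transcript length CD3E exceeded CD3D 251- to 729-fold in shCtrl and 184- to 336-fold in shmiR155HG libraries. With the union of exons as length these ranges were 624- to 1810-fold and 457- to 835-fold.

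CD3D was above the detection limit in all 6 libraries, at 0.231 to 0.684 CPM in shCtrl and 0.520 to 0.918 CPM in shmiR155HG cells, and the groups overlapped. Without a filter its log2 fold change was 0.67 (SE 0.627, adjusted p = 0.584 by edgeR). CD3G was at or under the limit in every library, so no fold change is given. Of the 6 other protein-coding genes that start within 100 kb of a CD3 gene, JAML and MPZL2 were under the filter, at a mean of 0.259 and 0.755 CPM in shCtrl cells. UBE4A (log2 fold change 0.034, adjusted p = 0.705 by edgeR), ATP5MG (−0.0074, adjusted p = 0.956) and MPZL3 (0.17, adjusted p = 0.251) were not called. KMT2A was at −0.14 (adjusted p = 0.0496 by edgeR) and was past the threshold in 3 of 16 alternatives, with −0.068 (adjusted p = 0.330) without shCtrl replicate 3.

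The other parts of the T cell receptor complex were mostly present as mRNA. Of the 24 genes listed for the receptor complex, its coreceptors and proximal signalling, 19 were tested, with 4 higher, 1 lower and a median log2 fold change of 0.039, against 7.26% and 8.02% of all genes. Leaving out a library gave 0 lower (without shCtrl replicate 2 or 3 or shmiR155HG replicate 1 or 3) to 2 lower (without shCtrl replicate 1), and the exact test of edgeR and DESeq2 each gave 3 lower, against 2 with no filter. SIT1, among the 19, exceeded 1 CPM in shCtrl libraries only, so it was tested through that group. It was not called (log2 fold change −1.39, adjusted p = 0.0726 by edgeR). CD247, the zeta chain, stood at 121.2 ± 3.03 CPM with shCtrl and 127.9 ± 8.83 CPM with shmiR155HG (SD, n = 3 each) and was not called (adjusted p = 0.350 by edgeR). TRDC, the constant gene of the delta receptor chain, had the highest level of the list at 232.9 ± 6.38 CPM (SD, n = 3) in shCtrl cells. Its rise to 253.0 ± 5.33 CPM in shmiR155HG cells (SD, n = 3; log2 fold change 0.12, adjusted p = 0.0290 by edgeR) was lost in 6 of 16 alternatives, 5 of which left out a library (all but shCtrl replicate 3), with an adjusted p of 0.0501 to 0.130. TRAC, the constant gene of the alpha chain, stood at 72.3 ± 2.16 CPM and 72.3 ± 5.09 CPM (SD, n = 3 each). Constant gene counts do not show whether a receptor gene is rearranged.

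**Figure D4:**
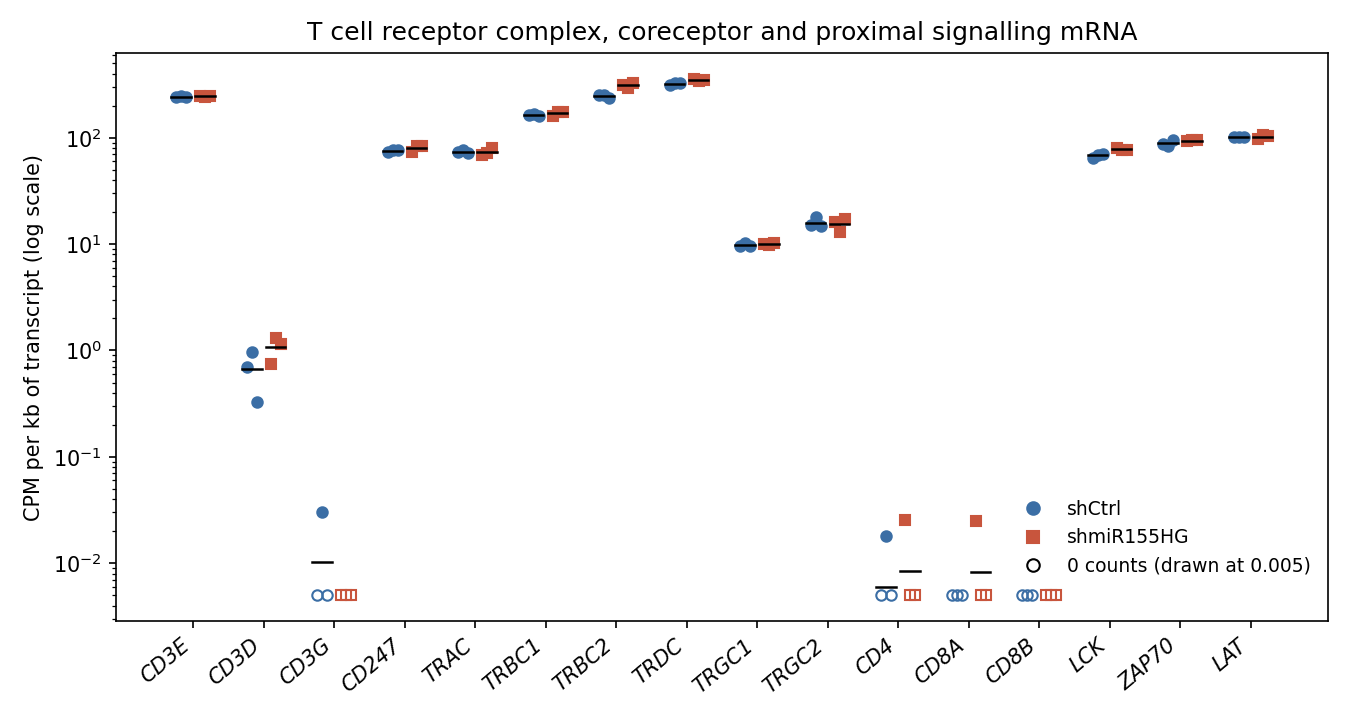
Levels per kb of canonical transcript (log axis) of the CD3 genes, other genes of the T cell receptor complex, coreceptors and proximal signalling genes in each library, with circles for shCtrl, squares for shmiR155HG, open symbols at the foot for 0 counts and bars for means. CD3E stands at the level of TRBC2 and below TRDC with shCtrl, and below both with shmiR155HG. CD3D lies at least 184-fold lower than CD3E in every library, and CD3G, CD4, CD8A and CD8B are at the detection limit.

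TRBC2, a constant gene of the beta chain, rose from 193.0, 192.8 and 181.2 CPM in shCtrl replicates 1, 2 and 3 to 235.4, 224.4 and 246.3 CPM in shmiR155HG replicates 1, 2 and 3 (log2 fold change 0.32, SE 0.0415, adjusted p = 2.75e-06 by edgeR). Its near-identical copy TRBC1 had a log2 fold change of 0.068 (adjusted p = 0.390 by edgeR), and reads can be shared between them, so the division of counts is uncertain. LCK, the kinase that binds the tails of CD4 and CD8, rose by 0.19 (SE 0.0434, adjusted p = 0.00306 by edgeR). ZAP70, the kinase recruited to phosphorylated CD3 and CD247, stood at 215.2 ± 12.9 CPM in shCtrl and 228.2 ± 1.96 CPM in shmiR155HG cells (SD, n = 3 each) and was not called (adjusted p = 0.183 by edgeR). Without shCtrl replicate 3 it was called higher (log2 fold change 0.13 against 0.085, adjusted p = 0.0177). ICOS, a costimulatory receptor, was called lower (log2 fold change −0.36, adjusted p = 0.0346 by edgeR), and that call was lost without shCtrl replicate 2 or 3 or shmiR155HG replicate 1 or 3 (adjusted p = 0.0764 to 0.136).

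CD5 and CD8A were at the detection limit. CD5 is a scavenger-type receptor that dampens T cell receptor signals, and it had 3 counts in shCtrl replicate 1 and 0 in the 5 other libraries. CD8A, the alpha chain of the coreceptor for MHC class I, had 2 counts in shmiR155HG replicate 1 and 0 in the 5 others. Its partner CD8B had 0 counts in all 6 libraries, and CD4 stood at a mean of 0.0182 CPM in shCtrl and 0.0260 CPM in shmiR155HG cells, under the limit. By contrast CD6, the relative of CD5, was measured at 16.9, 22.7 and 22.0 CPM in shCtrl replicates 1, 2 and 3 and at 29.5, 32.7 and 31.9 CPM in shmiR155HG replicates 1, 2 and 3. CD6 rose by 0.61 on the log2 scale (SE 0.103, adjusted p = 0.000101 by edgeR), with no overlap between the groups, and was called in all 16 alternatives.

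CD7, an immunoglobulin-family receptor of NK cells and T cells, was uneven between libraries. Its counts were 0, 32 and 4 with shCtrl and 15, 0 and 7 with shmiR155HG (replicates 1, 2 and 3), at most 0.876 CPM. Both groups thus held a library at 0, and the log2 fold change without a filter was −0.69 (SE 1.1, adjusted p = 0.790 by edgeR). How reads were assigned to CD7 cannot be seen from the counts, so its level is uncertain. SECTM1, a ligand of CD7, had 0 counts in all 6 libraries.

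B3GAT1 had 0 counts in all 6 libraries. It transfers the glucuronic acid of the CD57 epitope, and CHST10, the sulfotransferase that completes the epitope, also had 0 counts throughout. B3GAT2, a related glucuronyltransferase, stood at 4.03 ± 1.82 CPM in shCtrl and 4.31 ± 2.83 CPM in shmiR155HG cells (SD, n = 3 each). B3GAT3, which builds the linker of proteoglycans, stood at 66.1 ± 1.16 CPM and 63.6 ± 3.25 CPM (SD, n = 3 each), and neither was called (adjusted p = 0.947 and 0.616 by edgeR).

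Of 16 ligands, partners and modifying enzymes of the markers, 10 were tested, with 0 higher, 1 lower (10%) and a median log2 fold change of −0.010. All genes had 7.26% higher and 8.02% lower, so the share of lower genes was near the background. The 1 that fell was CD48, an adhesion molecule and ligand of CD244 that binds human CD2 weakly. It stood at 368.3, 377.6 and 359.5 CPM in shCtrl replicates 1, 2 and 3 and 314.5, 295.2 and 316.0 CPM in shmiR155HG replicates 1, 2 and 3 (log2 fold change −0.26, SE 0.0364, adjusted p = 9.61e-06 by edgeR). CD58, the main ligand of CD2, stood at 19.7 to 20.5 CPM with shCtrl and 18.2 to 20.2 CPM with shmiR155HG, and the groups overlapped. The CD2-binding proteins PSTPIP1, CD2AP and CD2BP2 had log2 fold changes between −0.029 and 0.010. ST8SIA4, which adds polysialic acid to CD56, stood at 77.6 ± 0.640 CPM and 80.2 ± 3.54 CPM (SD, n = 3 each), and the other such enzyme, ST8SIA2, had 0 counts. PECAM1, a ligand of CD38, was under the filter, at a mean of 0.201 and 0.184 CPM. LGALS1, which binds CD7 and CD2 among others, was the most abundant of the list at 472.5 ± 29.7 CPM in shCtrl cells (SD, n = 3) and was not called (adjusted p = 0.922 by edgeR).

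Of 13 transcription factors and recombination genes of the T lineage, 5 were tested, and 4 of them rose (80%, against 7.26% of all genes), with a median log2 fold change of 0.38 over the 5. GATA3 rose by 0.54 (SE 0.112, adjusted p = 0.00107 by edgeR) from a range of 12.7 to 14.6 CPM to one of 19.5 to 21.0 CPM. RUNX3, which silences CD4 in the CD8 lineage and also acts in NK cells, rose by 0.49 (SE 0.0393, adjusted p = 5.17e-10 by edgeR). NOTCH1 rose by 0.38 (adjusted p = 0.00637 by edgeR), a call lost without shCtrl replicate 2 (adjusted p = 0.0665), and TOX by 0.20 (adjusted p = 0.000194). BCL11B, a factor that holds T cells to their lineage, had a log2 fold change of 0.23 and was not called (adjusted p = 0.0635 by edgeR). TCF7 was under the filter, and LEF1, RAG2 and DNTT had 0 counts in every library. With 5 genes tested, nothing particular to this list is read from the count.

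Of 25 genes listed for NK cell identity, 23 were tested, with 5 higher (21.7%), 4 lower (17.4%) and a median log2 fold change of 0.024, against 7.26% and 8.02% of all genes. Without shCtrl replicate 3, or without shmiR155HG replicate 3, 3 were higher. The number lower was 3 without shCtrl replicate 1 or 2 and 5 without shCtrl replicate 3. KIR2DL4, an NK receptor for HLA-G, fell by 0.51 (SE 0.0591, adjusted p = 3.33e-07 by edgeR), from 89.5 ± 1.59 CPM to 62.7 ± 3.74 CPM (SD, n = 3 each). IL2RB, a chain of the IL-2 and IL-15 receptors and the most abundant gene of the list, rose by 0.34 (SE 0.0322, adjusted p = 1.35e-08 by edgeR), from 1004 ± 44.8 CPM to 1268 ± 17.7 CPM (SD, n = 3 each). EOMES and TBX21, the T-box factors of NK cells, rose by 0.32 (adjusted p = 7.74e-07 by edgeR) and 0.27 (adjusted p = 4.99e-06 by edgeR). KLRC1 (0.17, adjusted p = 0.0252 by edgeR) and ID2 (0.13, adjusted p = 0.0327) were also called higher. These 2 calls were the ones lost where 3 were higher, as IL2RB, EOMES and TBX21 were called in all 16 alternatives. The other genes called lower were NCR3 (−0.24, adjusted p = 0.000577 by edgeR), PRF1 (−0.20, adjusted p = 0.000419) and CD244 (−0.12, adjusted p = 0.0276). NKG7, a granule membrane protein, stood at 676.6 ± 19.9 CPM in shCtrl and 688.1 ± 14.1 CPM in shmiR155HG cells (SD, n = 3 each). The adaptors FCER1G and TYROBP were low, at 1.81 ± 0.168 CPM and 1.41 ± 0.294 CPM in shCtrl cells (SD, n = 3 each), and KLRB1 and KLRF1 were at or under the detection limit. In these cells, labelled as an NK line, 23 of 25 genes of the list passed the filter, against 12263 of all 36601 genes. The list was chosen with earlier results of these data known, so its share is not a test of identity.

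Genes listed as markers of other cell types were set beside the result for CD38, although bulk counts do not show which cells they came from. Of 11 myeloid markers 3 were tested, and the summed level of all 11 was 22.3 to 30.3 CPM in shCtrl and 16.0 to 22.0 CPM in shmiR155HG libraries, with ITGAM called lower (log2 fold change −0.60, adjusted p = 0.0161 by edgeR), although its groups overlapped. Its call was lost without shCtrl replicate 2 or 3 or shmiR155HG replicate 1 or 3 (adjusted p = 0.0583 to 0.181). With limma-voom on all 6 libraries it was lost too (adjusted p = 0.057), and it stood in 11 of 16 alternatives. The other myeloid genes tested were also lower on average and not called, CSF1R at 3.36 to 5.59 CPM with shCtrl and 2.60 to 4.57 CPM with shmiR155HG (log2 fold change −0.47, adjusted p = 0.235 by edgeR) and CD68 at 7.01 to 9.19 CPM and 4.81 to 7.95 CPM (−0.37, adjusted p = 0.205). The median log2 fold change of the 3 was −0.47. Among the genes under the filter, MPO and CD163 had 0 counts, and LYZ stood at a mean of no more than 0.0260 CPM. CD14 went the other way, from a mean of 0.0781 CPM with shCtrl to 0.457 CPM with shmiR155HG, without overlap. S100A9 was lower, at 0.599 CPM with shCtrl and 0.210 CPM with shmiR155HG. Neither was tested, so the myeloid list was not uniform in direction. Of 10 B cell markers 1 was tested, PAX5, which made up nearly all of a sum of 229.1 to 264.2 CPM in shCtrl and 340.5 to 343.7 CPM in shmiR155HG libraries. PAX5 was called higher (log2 fold change 0.49, adjusted p = 1.7e-09 by edgeR), without overlap between the groups, and in all 16 alternatives. MS4A1 stood at a mean of no more than 0.0428 CPM and EBF1 at 0 counts. Of all genes tested 7.26% were called higher and 8.02% lower, and with so few markers tested the shares cannot be compared. The 10 erythroid and platelet markers summed to at most 0.334 CPM, and the 9 epithelial, fibroblast and endothelial markers to at most 1.05 CPM. The part of the myeloid and B cell genes in the fall of CD38 was not tested.

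CD38 breaks down NAD, so 26 genes of NAD and adenosine metabolism were looked up after its value was seen. Of these 21 were tested, with 0 higher, 4 lower and a median log2 fold change of −0.062, against 7.26% and 8.02% of all genes. NAMPT, the rate-limiting enzyme of NAD salvage, fell by 0.33 (SE 0.0412, adjusted p = 1.04e-06 by edgeR), from 181.7 ± 5.10 CPM to 144.1 ± 2.60 CPM (SD, n = 3 each). PARP1, another consumer of NAD, fell by 0.23 (SE 0.0340, adjusted p = 2.30e-05 by edgeR). ADA (log2 fold change −0.61, adjusted p = 0.0346 by edgeR) and DPP4 (−0.11, adjusted p = 0.0469), which binds ADA at the surface, were called in 12 and 5 of 16 alternatives. ADA was lost without shCtrl replicate 2 or 3 or shmiR155HG replicate 1 or 3 (adjusted p = 0.0532 to 0.184), and DPP4 reached an adjusted p of 0.279 without shmiR155HG replicate 2. The ectoenzymes ENPP1 and NT5E, which with CD38 can form adenosine, were at 0 counts and at a mean of no more than 0.0811 CPM.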

How the data were processed

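RNA-seq counts of 6 NK-92 libraries were used, all of them. The authors captured poly(A) RNA, read pairs of 150 bases, aligned them to hg38 with HISAT2 and deposited whole-number counts per gene from StringTie and prepDE.py3, without normalization. The annotation release and the use of strand are not given in the sources used here. Counting intervals and limits cover counting error only.

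Genes over 1 CPM in at least 2 libraries were kept. They were tested across all genes with the quasi-likelihood test of edgeR 4.0.16 (TMM, robust fit, Benjamini-Hochberg, adjusted p under 0.05) in R 4.3.3. SE and 95% intervals are of the log2 fold change. Alternatives used DESeq2 1.42.0 and limma 3.58.1, and the scripts were tested on simulated data. Positions and lengths came from GENCODE for hg38, where 36366 of 36601 IDs matched. The members and lists were chosen with earlier results of these data known. Named were the 10 members, MIR155HG, up to 4 called genes with the largest change and the 2 most abundant genes per companion list, genes near the CD3 cluster, and the 3 profiles nearest to CD38. Other genes were named after their values were seen. The NAD list, the neighbours of CD38 and the call rule of the paper were added after seeing the data. Between replicates of a group the mean chi-square per gene was 7.35 to 10.9, so no library was counted as a copy.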

Additional observations from a re-analysis of the deposited data

How the results depend on the processing

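Over 16 alternatives (scaling, filter, test, halved counts, replicate block, each library left out, and the call rule of the paper, which was added after seeing the data), the count of members called stayed at 1 lower and 0 higher. CD38 was called in all 16, with a log2 fold change of −1.03 to −0.92, and NCAM1 (0.036 to 0.12), CD2 (0.048 to 0.072) and CD3E (0.012 to 0.037) in none. Leaving out 1 library gave 10 to 12 companion genes higher and 4 to 6 lower, against 13 and 6 of 57 tested. The number lower was 7 with no filter, 8 with the exact test and 9 with the DESeq2 test, and the call rule of the paper (unadjusted P under 0.01, fold over 1.2 in the exact test) gave 8 higher.

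Length by the union of exons moved the level in shCtrl cells to 253.0 CPM per kb for CD2, 124.1 for CD3E, 21.9 for NCAM1 and 10.6 for CD38. LGALS1, which was not called and stood between −0.057 and 0.029 when a library was left out, changed sign without shCtrl replicate 1 (0.0073), shCtrl replicate 2 (0.029) or shmiR155HG replicate 1 (0.018). The cause of these changes was not tested. Of the other values of single genes and lists under an alternative, 628 kept direction and side of the threshold or stayed within 1.5 times, 57 lost the call, 1 (ZAP70 without shCtrl replicate 3) gained it and 21 counts or levels moved.

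The labels share replicate numbers, but same-numbered libraries showed no shared deviation (correlations of −0.018, 0.001 and 0.003). These values cannot show whether libraries of the same number were handled together. With the replicate block the log2 fold change of CD38 was −0.97, that of NCAM1 0.078, of CD2 0.056 and of CD3E 0.021, with 13 companion genes higher and 6 lower. Depth limits CD3G, CD5, CD8A and B3GAT1, at or under 3 counts in every library.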
